A study of Homo sapiens with 63 samples.

Results

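The mRNAs of 10 immediate early genes were followed across polysome gradients: EGR1, FOS, JUN, JUNB, JUND, MYC, IER2, BTG2, PHLDA1 and MCL1. They are 10 of the 11074 genes in the expression table and were taken from a list of immediate early genes, for which serum was absent in one starvation and present in the other. They were chosen by their measured shifts in position between the gradients as well as by the list, so every value given for them describes these gradients and carries no test. The cells were HEK293, an established human embryonic kidney line. The study asked how ribonucleoprotein complexes with poly(A)+ RNA are distributed when serum or amino acids are withdrawn. Log phase cells grew in DMEM with 10% fetal bovine serum (FBS), the serum-starved cells went without serum for 2 h, and the amino acid-starved cells spent 1 h in EBSS, a salt solution, with MEM vitamins and 10% FBS. Cells of all 3 conditions were exposed to cycloheximide, which holds ribosomes on mRNA, for 10 min in their own medium. Each condition gave 1 gradient of 20 sequenced fractions, numbered 3 to 22, so 60 libraries enter here and none of the differences has a replicate check. The labels do not state which end of the numbering is heavy, and positions are therefore called lower- or higher-numbered.

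Immediate early genes are switched on within minutes of a growth signal without new protein synthesis, through MAP kinase cascades that act on serum response factor, its ternary complex partners and CREB already present at the promoters. Most of the transcripts are short-lived, and many of the proteins are transcription factors. EGR1 is a zinc finger factor. FOS, JUN, JUNB and JUND supply the leucine zipper subunits of AP-1, and FOS cannot pair with itself. MYC drives growth and ribosome production, IER2 is a nuclear protein of the early response, BTG2 is an antiproliferative protein that recruits the CCR4-NOT deadenylase, PHLDA1 is a pleckstrin homology-like protein, and MCL1 is a short-lived survival factor of the BCL2 family. Inhibitors of protein synthesis such as cycloheximide are themselves known to raise immediate early transcripts.

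The promoters of EGR1, FOS and IER2 are shown because these 3 mRNAs stood above log phase without amino acids. They did so in at least 16 of 20 fractions, relative to the median gene of each fraction. The 250 bases upstream of each RefSeq start (build GRCh38.p14, + strand) lie at chr5:138465229-138465478 for EGR1, chr14:75278578-75278827 for FOS and chr19:13150161-13150410 for IER2. Capitals mark the CArG box, the element bound by serum response factor, and TGACG or its complement CGTCA, the core of the cyclic AMP response element.

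EGR1: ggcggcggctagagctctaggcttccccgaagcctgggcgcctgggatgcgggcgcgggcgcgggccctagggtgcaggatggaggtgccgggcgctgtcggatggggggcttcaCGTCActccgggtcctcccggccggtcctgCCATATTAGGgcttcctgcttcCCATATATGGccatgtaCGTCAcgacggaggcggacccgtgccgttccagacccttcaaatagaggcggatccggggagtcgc
FOS: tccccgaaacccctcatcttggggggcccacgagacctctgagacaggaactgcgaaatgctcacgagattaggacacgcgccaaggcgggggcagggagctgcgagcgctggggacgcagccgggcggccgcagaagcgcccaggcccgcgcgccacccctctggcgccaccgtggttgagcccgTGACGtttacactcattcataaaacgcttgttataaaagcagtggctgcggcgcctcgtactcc
IER2: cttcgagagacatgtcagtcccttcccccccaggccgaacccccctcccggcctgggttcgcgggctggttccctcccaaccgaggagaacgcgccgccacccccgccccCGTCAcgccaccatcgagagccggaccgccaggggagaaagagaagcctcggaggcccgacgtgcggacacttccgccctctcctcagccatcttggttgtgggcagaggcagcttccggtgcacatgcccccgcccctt

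The window of EGR1 held 2 CArG boxes and 2 TGACG matches, and those of FOS and IER2 held 1 TGACG match each. Of the 8 members with a promoter entry, only EGR1 held a CArG box in its window, against 1.14% of 27305 promoters and 0.977% of those of tested genes. TGACG, searched on both strands, was found in 7 of the 8 (the exception was PHLDA1), against 21.7% of all promoters and 31.3% of the 8699 belonging to tested genes. The full element TGACGTCA, which contains TGACG, was found in JUND alone, against 1.77% of all promoters and 3.16% of those of tested genes. A match says only that these letters are in the window, and no match only that they are not.

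Values are the deposited signal, named TPM by the authors and so per transcript length, with a further scale of theirs on each fraction. Fraction totals ran from 36830 to 66981627. The fractions 8 to 12 held 12.8% of all gene signal in the log phase gradient, 45.7% in that of serum-starved cells and 55.0% in that of amino acid-starved cells. Read depth is unknown, so no counting error could be attached. Of the markers of this line, VIM, NEFL, NEFM, KRT8 and KRT18 were present in every gradient, from 8.11 per 1000000 of the gradient's signal for KRT8 in log phase to 507 for NEFM without serum, and PAX2 gave no value here. Of the 11074 genes, 10889 were tested, meaning that their signal averaged at least 5 per fraction and exceeded 0 in at least 15 fractions of every gradient. All 10 members passed.

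Each mRNA was described in 3 ways. Its position is the mean fraction number weighted by its signal, and a shift is the difference in position between 2 gradients minus that of the median tested gene. Its level is the sum of its signal along a gradient, in parts per 1000000 (ppm) of the sum of all genes there, compared on the log2 scale after adding 1, again relative to the median gene. The same-fraction difference is the log2 ratio, after adding 1, of its share of the fraction's total signal in ppm, relative to the median gene of that fraction, and it does not depend on the authors' fraction scale. Adding 1 understates the change of the scarce mRNAs. A shift was counted at 1 fraction or more with 0.5 or more the same way in both the odd- and the even-numbered fractions, and a level difference at 1 or more with the same 0.5 in both sets. A same-fraction difference was counted at a median of 0.5 or more with 16 of 20 fractions on its side. These are rules of size, not tests. Every count of fractions above or below another gradient is likewise relative to the median gene of the fraction. A fraction with signal 0 in both gradients can therefore count as above.

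**Figure D1:**
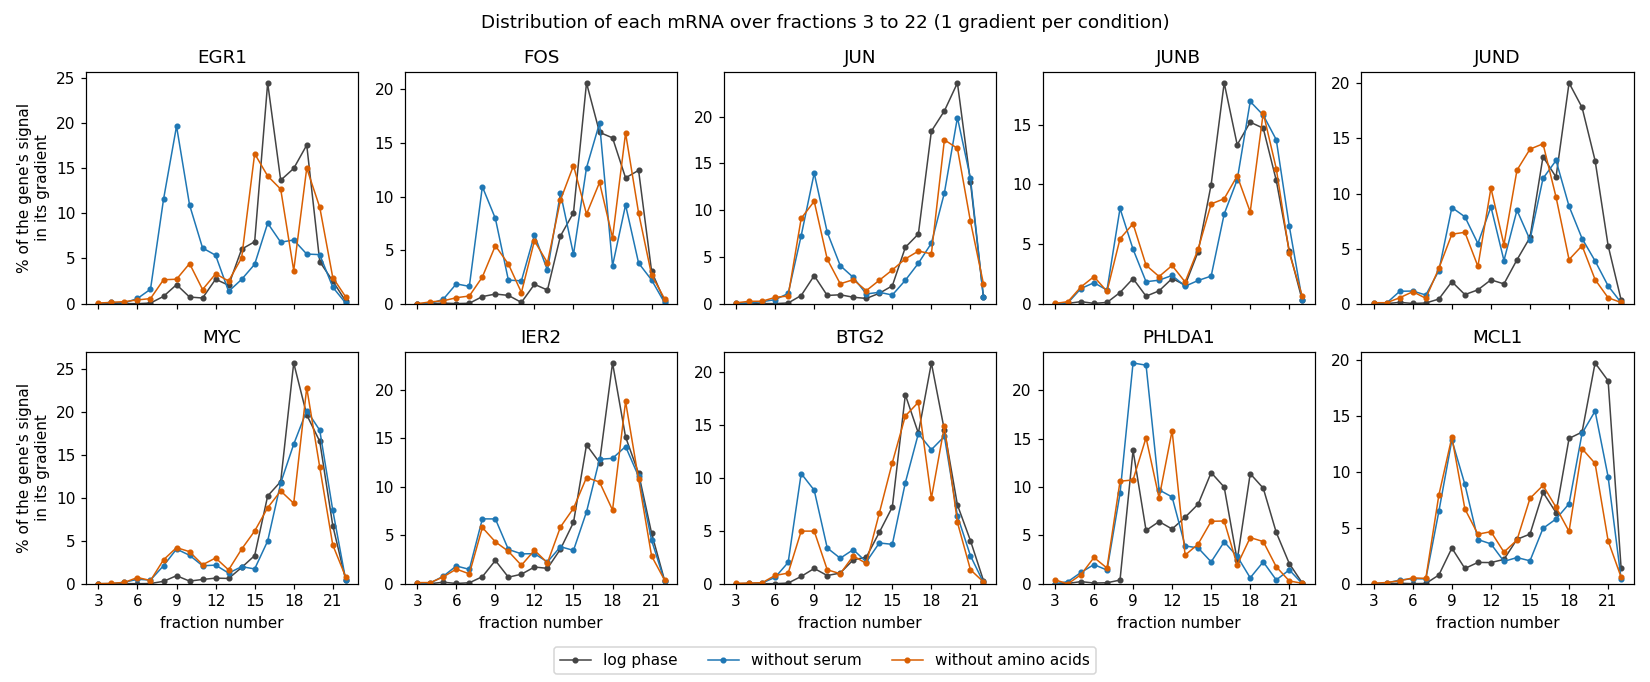
Distribution of the 10 mRNAs over the gradients. The y axis gives the percentage of each mRNA's own signal in each fraction, the x axis the fraction number, and each line is 1 gradient. Without serum, EGR1 peaked in fraction 9 with 19.6% of its signal, while in log phase its peak lay in fraction 16 with 24.4%. These fractions held 16.4% and 14.1% of all gene signal in their gradients.

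In log phase most members lay in the higher-numbered fractions, close to the typical mRNA. Positions ran from 14.5 for PHLDA1 to 18.2 for JUN, with a median of 17.1 over the members and 16.9 over all tested genes. JUN, MYC and MCL1 were the farthest toward high numbers, at 18.2, 18.0 and 17.8, and fractions 18 to 22 held 76.4%, 69.2% and 65.7% of them. PHLDA1 was set apart at the 4.2 percentile of tested genes, with 31.8% of its signal in fractions 8 to 12, where the other 9 members had 2.71% to 9.13%. EGR1 and FOS were intermediate, with 53.0% and 52.7% in fractions 13 to 17.

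Abundance differed widely among the members. MYC was the most abundant member in every gradient, at 736.6 ppm of the log phase gradient, 696.7 of the serum-starved and 333.0 of the amino acid-starved one. In the same order of gradients JUN stood at 126.7, 84.9 and 52.3 and JUND at 48.5, 59.7 and 63.8, so that JUND lay above JUN without amino acids. MCL1 stood at 41.6, 30.0 and 33.0, IER2 at 27.9, 22.0 and 31.0, and BTG2 at 13.9, 11.0 and 10.7. The remaining 4 were scarce. JUNB lay between 3.41 and 5.07 ppm, EGR1 between 2.64 and 5.20, FOS between 1.72 and 1.97 and PHLDA1 between 1.36 and 1.95. FOS and PHLDA1 stayed throughout under the minimum for a level difference, which is 5 ppm in at least 1 of the 2 gradients compared, so only their positions and same-fraction values are compared.

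Serum withdrawal against log phase. Without serum, 6 of the 10 mRNAs lay lower in the gradient than in log phase relative to the median gene, and none lay higher by the size rule, a split that did not hold with every fraction given the same total. These were EGR1, FOS, JUN, JUND, PHLDA1 and MCL1, while JUNB and MYC had shifts above 0. Among all tested genes 9.86% were counted lower and 5.7% higher, and the median shift of the members was -1.33 fractions. The median gene itself moved from 16.9 to 15.6, a change of -1.35, which is removed from the shifts.

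EGR1 had the largest displacement of the 10 in this comparison. Its position went from 16.6 in log phase to 12.8 without serum, a shift of -2.44 (-3.28 over odd and -1.71 over even fractions), at the 1.73 percentile of tested genes. Fractions 8 to 12 held 7.00% of EGR1 in log phase against 53.6% without serum, and fractions 13 to 17 held 53.0% against 24.1%. Such shares are not centred. The median share over tested genes was 7.17% against 22.5% in fractions 8 to 12. It was 42.6% against 33.8% in fractions 13 to 17, and 48.5% against 39.1% in fractions 18 to 22. The signal of EGR1 in ppm of the fraction ran from 0 to 11.2 in log phase, with a median of 1.80. Without serum it ran from 0 to 8.63 with a median of 2.46. The ranges overlap over the gradient as a whole, but in fractions 8 to 11 EGR1 stood 1.10 to 1.73 above log phase on the log2 scale.

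Of the AP-1 subunits, FOS, JUN and JUND passed the rule and JUNB did not. FOS went from 17.0 to 14.1, a shift of -1.50, and fractions 8 to 12 held 4.28% of it in log phase against 29.6% without serum. JUN, the main partner of FOS, shifted by -1.42. It had 35.8% in fractions 8 to 12, 10.0% in fractions 13 to 17 and 52.3% in fractions 18 to 22. The log phase shares were 6.42%, 17.1% and 76.4%. Fraction 9 alone held 3.00% of JUN in log phase, and 4.22% of all gene signal there. In ppm of the fraction JUN had no peak at fraction 9, with 113, 90.1 and 86.0 in fractions 8, 9 and 10. JUND, the subunit usually expressed constitutively, shifted by -1.81 as its share in fractions 18 to 22 went from 56.5% to 20.4%. The median share there over tested genes went from 48.5% to 39.1%. JUNB had a shift of 0.50 and a position of 16.0, above the median gene.

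MYC, with a shift of 0.52, kept 63.3% of its signal in fractions 18 to 22 and had the highest position of the 10 without serum, 17.2. IER2 and BTG2 had shifts of -0.42 and -0.69, short of the rule. PHLDA1 shifted by -2.15, to a position of 11.0 at the 0.726 percentile of tested genes, with 73.4% of its signal in fractions 8 to 12. MCL1 shifted by -1.24, and fractions 8 to 12 held 9.13% of it in log phase against 35.7% without serum.

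**Figure D2:**
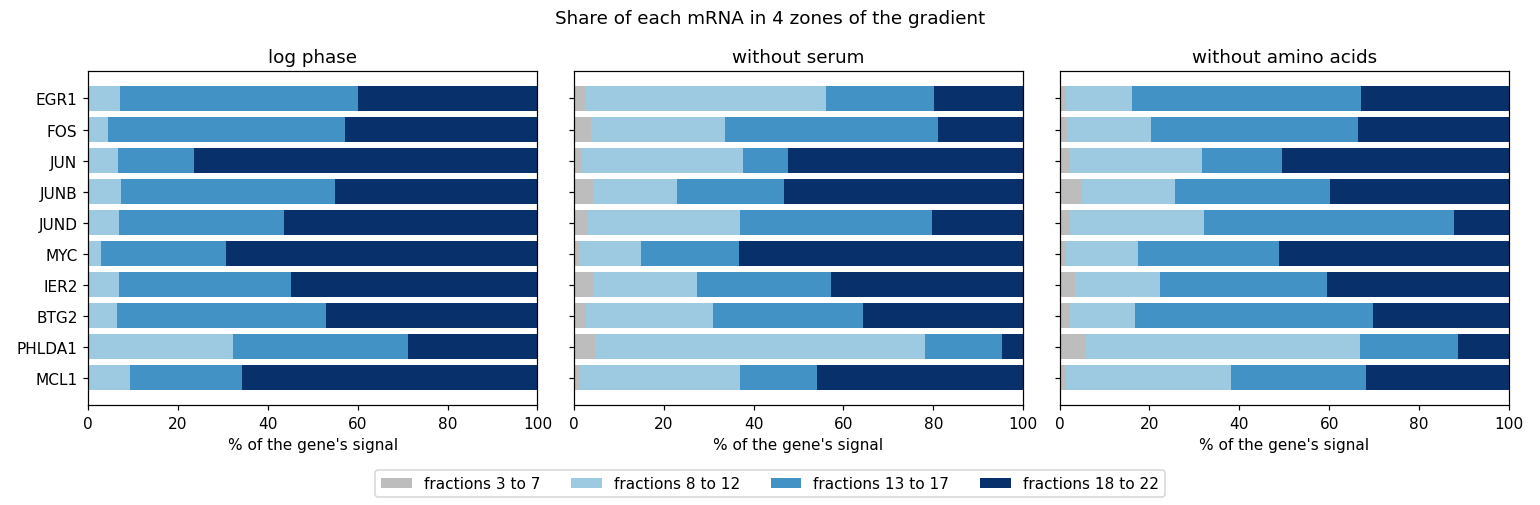
Share of each mRNA's signal in 4 zones of the gradient. Each bar is 1 mRNA in 1 gradient and adds to 100%, with the zones from fractions 3 to 7 (grey) to fractions 18 to 22 (dark blue). PHLDA1 has 73.4% and EGR1 53.6% in fractions 8 to 12 without serum, and JUND has 55.7% in fractions 13 to 17 without amino acids.

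The amounts of these mRNAs did not pass a rule of size without serum. In bulk lysates, fewer cells with a transcript and less of it per cell cannot be told apart. Of the 7 with a level, none was counted, against 3.06% of 8199 genes counted higher and 0.903% lower, and the largest difference was JUND at 0.73. Nor was any of the 10 counted by the same-fraction rule, against 8.49% higher and 5.76% lower among all tested genes. Relative to the median gene of each fraction, MCL1, at a median of -0.38, was below log phase in 19 of 20 fractions. MYC, at a median of 0.29, was above log phase in 16 fractions, and EGR1, FOS and JUND were above it in 13, 15 and 14. The counts of EGR1 and FOS include fraction 3, and that of FOS also fraction 4. Their signal there was 0 in both gradients. For JUND the excess was placed in fractions 8 to 17, with zone medians of 1.14 and 1.35, against -0.39 in fractions 18 to 22.

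Several of these shifts rest on the weight of single fractions. Without fraction 8 the shifts of FOS, JUN and MCL1 were -0.96, -1.08 and -0.98, and without fraction 9 they were -1.34, -0.87 and -0.83, each short of the rule over all fractions or over the odd or even ones, which left 3 of the 10 counted. PHLDA1 missed it without fraction 19 at -1.67. With every fraction given the same total, EGR1 and FOS kept shifts of -1.74 and -1.63, JUND and PHLDA1 fell short at -0.26 and -0.53, and JUN, IER2 and MCL1 lay on the other side at 1.78, 2.05 and 0.14. In that setting JUNB and MYC were at 2.90 and 1.17, so that 2 members were counted lower and 4 higher in place of 6 and 0. Scaled by spike-ins, JUN and MCL1 were at -0.18 and -0.55, and with log2(signal + 1) as the weight no member was counted by shift in any of the 3 comparisons, EGR1 being at -0.76 in this one.

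Amino acid withdrawal against log phase. Without amino acids, with serum present, EGR1 was the 1 member whose shift was counted upward on the authors' fraction scale, and it was also more abundant, while JUND and MCL1 lay lower. The count was 1 of 10 higher and 2 of 10 lower, against 6.84% and 9.57% of all tested genes, with a member median of 0.27. The median gene moved by -1.80 fractions in this comparison. This comparison uses the same log phase gradient as the previous one.

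The position of EGR1 was 15.9 against 16.6 in log phase, a shift of 1.07 relative to the median gene and -0.73 before that correction. Its shares over the 4 zones, from low to high fraction numbers, were 1.44%, 14.7%, 50.9% and 33.0%, against 0.0969%, 7.00%, 53.0% and 39.9% in log phase. The median shares over tested genes were 1.58%, 23.1%, 43.6% and 27.2%, against 0.107%, 7.17%, 42.6% and 48.5%. JUND shifted by -1.46, and 55.7% of it lay in fractions 13 to 17 and 12.1% in fractions 18 to 22. MCL1 shifted by -1.53, with 36.7% in fractions 8 to 12. The other 7 had shifts between -0.83 for JUN and 0.50 for BTG2.

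Relative to the median gene, EGR1 was the member whose amount differed most from log phase. Before centring, the level differences of JUN and MYC were larger and downward, at -1.26 and -1.14, against 0.77 for EGR1. EGR1 stood at 5.20 ppm of the gradient against 2.64, a level difference of 1.36 (1.47 over odd and 1.23 over even fractions). It was the 1 member counted of 8 with a level. It entered this comparison only through the gradient where it is high, and was left out of the serum comparison, at 2.64 and 2.88 ppm, so its count supports nothing. Among 8202 genes 4.96% were counted higher and 2.84% lower. In the fractions themselves EGR1 ran from 0.527 to 28.4 ppm with a median of 4.48, against 0 to 11.2 with a median of 1.80 in log phase. Relative to the median gene of each fraction, it was above log phase in 20 of 20 fractions, by a median of 1.12. The excess was largest in fractions 18 to 22, with a zone median of 2.63. In ppm alone EGR1 was below log phase in fractions 7, 8 and 9, at 5.83, 1.68 and 0.863 against 11.2, 2.18 and 1.32.

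FOS and IER2 also passed the same-fraction rule, and no member passed it downward. FOS was higher than log phase in 18 of 20 fractions by a median of 0.55, and IER2 in 16 of 20 by 0.54. That makes 3 of 10 higher, against 10.6% of tested genes higher and 8.92% lower. JUND, with a median of 0.75, was above log phase in 12 fractions, concentrated in fractions 13 to 17 with a zone median of 1.72, and below it in 8. JUN, at -0.43, was lower in 15 fractions.

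The shift of EGR1 depended on few fractions, at 0.97, 0.73 and 0.87 without fraction 9, 20 or 21, each short of the rule, and that of MCL1 missed the rule without fraction 8 at -1.20 and at -0.96 scaled by spike-ins. EGR1 was at 0.83 without fractions 3, 4, 21 and 22. With every fraction given the same total, JUND and MCL1 fell short at -0.065 and -0.24 and JUN turned to 2.99, whereas EGR1 was at 2.60. JUNB, IER2, FOS and MYC were at 3.17, 2.89, 1.38 and 1.18 in that setting, so that 6 members were counted, all upward. Per spike-in signal in place of the fraction total and uncentred, the same-fraction values of EGR1, FOS and IER2 were 0.43, 0.18 and 0.43, under the rule. FOS and IER2 also missed it with a pseudocount of 5 or uncentred. The level difference of EGR1 was 0.87 with a pseudocount of 5 and 0.77 uncentred, both under 1, and without fraction 15, 16, 17, 19 or 20 its level fell under the minimum. Further calls appeared on leaving out fractions: the shift of JUN reached -1.01 to -1.17 without fraction 18, 19, 20 or 21, that of PHLDA1 -1.36 without fraction 9, and the level difference of JUND 1.00 to 1.17 without fraction 17, 18, 19 or 20.

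**Figure D3:**
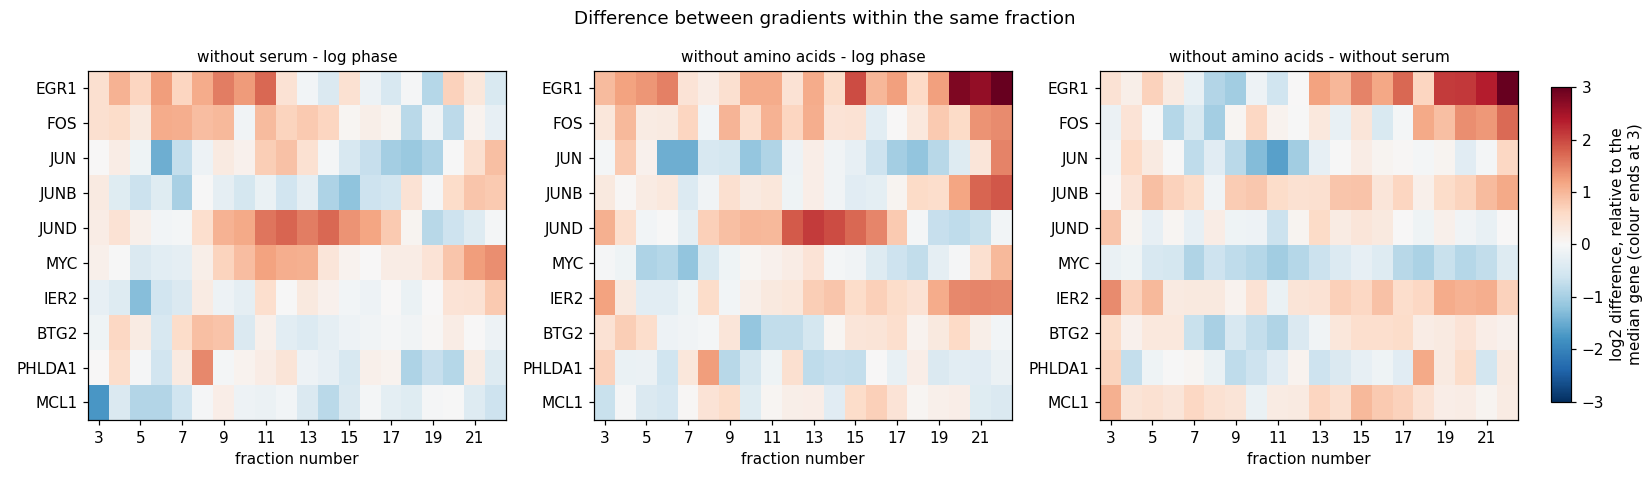
Differences between gradients within the same fraction. Each cell is 1 mRNA (row) in 1 fraction (column), coloured by the log2 difference in signal as ppm of the fraction relative to the median gene, with red higher in the first-named gradient; the colour ends at 3. Relative to the median gene, EGR1 is above log phase in all 20 fractions without amino acids. On the same measure MYC is lower without amino acids than without serum in all 20.

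Amino acid against serum withdrawal. Compared directly, 4 of the 10 mRNAs lay toward higher-numbered fractions without amino acids and none toward lower-numbered ones by the size rule. These were EGR1, FOS, BTG2 and PHLDA1. Among all tested genes 2.01% were counted higher and 1.06% lower. The member median was 0.64 fractions, and the median gene moved by -0.47.

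EGR1 differed most, with a position of 15.9 against 12.8 and a shift of 3.52 (3.94 over odd and 3.04 over even fractions). It lay at the 99.97 percentile of tested genes, and without any 1 fraction its shift stayed between 2.84 and 3.87. With log2(signal + 1) as the weight, EGR1 was not counted in this comparison, nor was any other member. FOS had a shift of 1.85, at the 99.89 percentile, with a range of 1.30 to 2.26 on leaving out each fraction. Its share in fractions 18 to 22 was 33.7% without amino acids and 18.9% without serum. The median share there over tested genes was 27.2% and 39.1%.

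BTG2 had a shift of 1.20 and 14.8% of its signal in fractions 8 to 12, against 28.2% without serum. The median share there over tested genes was 23.1% without amino acids and 22.5% without serum. PHLDA1 had a shift of 1.45, although with 61.1% and 73.4% in fractions 8 to 12 it stayed the lowest member in both gradients. The AP-1 partners JUN, JUNB and JUND stayed under the rule at 0.60, -0.17 and 0.36, as did MYC, IER2 and MCL1 at -0.20, 0.67 and -0.27. BTG2 was at 0.81 without fraction 8, at 0.88 scaled by spike-ins and at 0.74 before centring, and PHLDA1 was at 0.99 before centring and 0.48 with equal fraction totals, each under the rule.

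**Figure D4:**
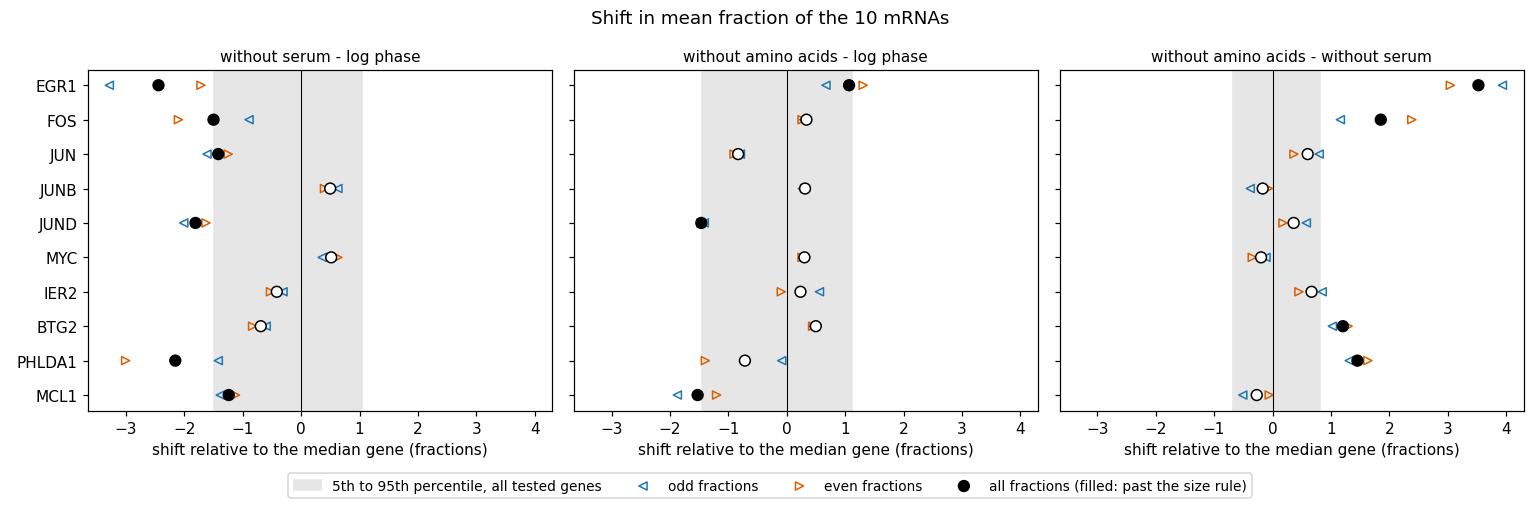
Shift of each mRNA in the 3 comparisons. The x axis gives the shift in fractions relative to the median gene, filled circles pass the size rule, triangles are the odd and even fractions alone, and the grey band spans the 5th to 95th percentile of all tested genes. EGR1 is at -2.44 without serum, 1.07 without amino acids and 3.52 in the direct comparison.

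In amount, IER2 and JUNB were higher and MYC was lower without amino acids than without serum. Relative to the median gene of each fraction, IER2 was higher in 19 of 20 by a median of 0.63 and JUNB in 19 of 20 by 0.60. On the same measure MYC was lower in all 20, by -0.12 to -1.05. Its median of -0.66 lies at the 0.174 percentile of tested genes. So 2 of 10 were counted higher and 1 lower, against 1.07% and 0.928% of tested genes. In ppm alone MYC was higher without amino acids in fraction 15, at 407 against 322. Pooled over each gradient, MYC was at 333.0 against 696.7 ppm, a level difference of -0.89, and EGR1 at 5.20 against 2.88, a difference of 0.85 (1.06 without fraction 9). Neither reached 1 over all fractions, so no member of the 7 was counted, against 0.187% of 7490 genes higher and 0.0401% lower. EGR1 entered this comparison, too, only through the gradient where it is high, so its level difference supports nothing.

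MCL1 was higher in 19 of 20 fractions as well, but at a median of 0.41 it stayed under the size asked for. EGR1, at a median of 0.67, was higher in 15 of 20 fractions and missed the rule by 1 fraction, although leaving out any 1 of fractions 7 to 11 brought it past at 0.70. Its differences ran from -1.04 in fraction 9 to 3.51 in fraction 22, with zone medians of -0.60 in fractions 8 to 12 and 2.12 in fractions 18 to 22. FOS had a zone median of 1.30 in fractions 18 to 22, and of 0.065 and -0.061 in fractions 8 to 12 and 13 to 17, where EGR1 had -0.60 and 1.21. JUN was lower in fractions 8 to 12 by a zone median of -1.03 and near 0 elsewhere. Per spike-in signal and uncentred, MYC was at -0.96 and still counted, while IER2 and JUNB were at 0.26 and 0.31 and were not, and JUNB was at 0.35 with a pseudocount of 5.

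The members did not vary as 1 group over the 60 fractions. Likeness was measured as Pearson's r of the log2 signal in ppm of the fraction over all 60 libraries, a description of points that share gradients and fraction makeup. JUNB and IER2 were the closest pair at 0.95, and each was the other's nearest gene of all tested. EGR1 was most like FOS (0.83), followed by NR4A1 (0.82), an immediate early nuclear receptor, and ZFP36L1 (0.82), which binds AU-rich elements, with a median of 0.52 over tested genes. FOS was most like NR4A1 (0.85), SPRY2 (0.83), a feedback inhibitor of MAP kinase signalling, and NFIL3 (0.83), a leucine zipper repressor, against a median of 0.59. JUN was most like genes outside the immediate early lists, TSPYL1 (0.95), HNRNPH2 (0.94) and UBQLN2 (0.93), against 0.53. PHLDA1 stood apart from the other 9, with r between 0.018 for MYC and 0.35 for JUND.

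Other immediate early genes were taken from a list of 51, of which 36 were tested. Without serum, 5 of the 23 with a level were lower than in log phase and none was higher, with a median of -0.27, against 0.903% lower and 3.06% higher of all genes with a level. In this comparison ID1, an inhibitor of basic helix-loop-helix factors, was at 6.32 ppm against 90.7 and had a level difference of -3.22. ID3, CYR61, CTGF and FOSL2, named because they were the rest of this count, had differences of -2.36, -1.96, -1.84 and -1.25. CYR61, CTGF and FOSL2 lay under 5 ppm without serum, at 4.11, 1.38 and 1.15. They entered only through log phase, where they are high, so their counts support nothing. ID1 and ID3 passed the minimum in both gradients. By position 1 of the 36, IER5L at -1.23, was lower without serum and none higher, with a median shift of -0.023, against 9.86% lower and 5.7% higher of all tested genes.

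Without amino acids against log phase, 11 of the 36 were higher by the same-fraction rule and 1 was lower, with a median of 0.23, against 10.6% and 8.92% of all tested genes. NR4A1 and SPRY2, the nearest genes to FOS, were at 1.02 and 0.76, higher in 19 and 20 of 20 fractions. Directly between the starvations, 15 of 36 were higher without amino acids and 1 lower, with a median of 0.37, against 1.07% and 0.928%. In that comparison ID1 and CYR61 were higher in all 20 fractions, by 3.27 and 2.28, and KLF4, the 1 lower gene, was at -0.61. None of the 36 was counted by shift between the starvations, at a median of 0.31.

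The regulators of these genes were measured from further lists. Between the starvations 2.01% of all tested genes were counted higher and 1.06% lower by shift, and 1.07% and 0.928% by the same-fraction rule, so a single gene counted in a list of 11 to 25 is not read as a result about the list. Among 13 tested AP-1 partners, ATF7 was the 1 gene counted by shift between the starvations, at 1.10. FOSL2, already counted among the other immediate early genes, was the 1 lower by level without serum, at -1.25. The share over all genes with a level was 0.903%, and FOSL2 entered only through log phase. By the same-fraction rule 3 of the 13 were higher without amino acids than without serum and none lower, against 1.07% and 0.928%. These were ATF3 at 0.76, FOSL2 at 0.75 and JDP2 at 0.66, and the first 2 are also among the 15 above. JDP2 was also counted higher by level, at 9.29 against 4.67 ppm, but entered only through the gradient where it is high. None of the 14 tested genes of the MYC network, partners and antagonists of MYC, was counted between the starvations by any of the 3 measures. Of the 14 tested relatives of MCL1 in the BCL2 family, BCL2L11, a proapoptotic BH3-only gene, shifted by 1.03 between the starvations, and PMAIP1 and HRK, named as the 2 counted, were higher by the same-fraction rule at 0.54 and 0.53. BTG1, a paralog of BTG2, was the 1 of 11 listed BTG, TOB and CCR4-NOT genes counted by shift between the starvations, at 1.00. Its level was higher without serum than in log phase by 1.30, a direction in which 3.06% of all genes with a level were counted.

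A list of 11 genes around serum response factor, CREB1 and NAB2 among them, gave 1 shift between the starvations, MKL1 at -1.19. MKL1 is a coactivator of serum response factor. By the same-fraction rule NAB2 was the 1 counted there, higher at 0.57, and it is among the 15 above. Without serum against log phase, SRF, ELK4 and CREB1 were lower by that rule, at -0.60, -0.62 and -0.64. That is 3 of 11 lower and none higher, against 5.76% and 8.49% of all tested genes. The 25 genes of the ERK, JNK and p38 cascades gave 1 shift between the starvations, NRAS at 1.02, and none by level or same-fraction difference. Of 13 tested MAP kinase phosphatases and Sprouty genes, feedback inhibitors of these cascades, 4 were higher without amino acids than without serum by the same-fraction rule and none was lower, with a median of 0.33, against 1.07% and 0.928% of all tested genes. These were DUSP5 at 2.17, DUSP8 at 0.85, SPRY2 at 0.74 and DUSP1 at 0.60, and DUSP1, DUSP5 and SPRY2 are also among the 15 other immediate early genes above. The 11 tested proteins that bind AU-rich elements gave none in either direction by any measure in the direct comparison.

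The genes lie on the following chromosomes in the RefSeq annotation of GRCh38.p14, all as protein-coding genes. EGR1 spans 138465479 to 138469303 on chromosome 5, FOS 75278828 to 75282230 on chromosome 14 and PHLDA1 76025447 to 76031776 on chromosome 12. JUN spans 58780791 to 58784047, BTG2 203305519 to 203309602 and MCL1 150574558 to 150579610 on chromosome 1. JUNB spans 12791486 to 12793315, JUND 18279694 to 18281622 and IER2 13150411 to 13154911 on chromosome 19, and MYC lies on chromosome 8.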

How the data were processed

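Poly(A)+ RNA of 60 gradient fractions (3 gradients of 20) was sequenced as stranded libraries, per the labels' protocols; the 3 lysate samples were not analysed here. The submitters' processing notes name kallisto 0.44.0, sleuth 0.29.0 and the build hg38. The deposited signal holds 1 value per gene symbol and fraction, named TPM by the authors, but fraction totals from 36830 to 66981627 show a further, unstated scale per fraction. Depth is unknown, which limits the scarce mRNAs most.

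After 30 spike-in sequences were removed, positions, levels and same-fraction differences were computed in Python 3.11.15 with numpy 2.4.6 and pandas 2.3.3, and the size rules were tested on simulated data. With 1 gradient per condition, no test was made. Coordinates and promoter windows come from RefSeq tables of GRCh38.p14, in which 8 of the 10 members had a promoter. The members, lists and rules were chosen with earlier results of these data known.

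All 10 members were named, with, from each list, the lowest and highest shift between the starvations and level difference without serum among those counted, and the 3 genes most like EGR1, FOS and JUN. Other names were chosen after their values were seen. Alternatives changed the fraction scale, weights, pseudocount, centring, filters and the fractions used.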

Additional observations from a re-analysis of the deposited data

Results flagged for a closer look

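EGR1 stood out because its shifts in the 2 starvations, each against the same log phase gradient, passed the size rule in opposite directions. Relative to the median gene, EGR1 shifted by -2.44 fractions without serum and by 1.07 without amino acids, and directly between the starvations by 3.52. The difference was not tested, since each condition had 1 gradient, and before centring EGR1 lay below its log phase position in both, by -3.79 and -0.73 fractions.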

How the results depend on the processing

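Of the values of single members that passed a rule in the reported or the other setting, 13 changed direction, all of them shifts, and the cause was not tested except where the setting itself removes the centring. With every fraction given the same total, the serum shifts of JUN, IER2 and MCL1 were 1.78, 2.05 and 0.14 and the amino acid shift of JUN 2.99. With log2(signal + 1) as the weight, the serum shifts of JUN and MCL1 were 0.038 and 0.16 and the amino acid shift of MCL1 0.030. Without centring, the amino acid shifts against log phase were -0.73 for EGR1, -1.46 for FOS, -1.49 for JUNB, -1.50 for MYC, -1.57 for IER2 and -1.30 for BTG2.

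For the serum shift, the member median was -0.061 with equal totals, -0.59 with spike-in scaling, -0.045 with log2 weights (0 counted) and -2.677 uncentred. For the amino acid shift it was 1.28 with equal totals (6 counted), 0.030 with log2 weights (0 counted), -1.53 uncentred (9 counted) and 0.073 without fractions 3, 4, 21 and 22. Between the starvations it was 0.098 with log2 weights (0 counted) and 0.17 uncentred (2 counted).

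The median level difference without serum was -0.33 uncentred. Without amino acids it was 0.23 with equal totals, 0.45 with spike-in scaling, 0.27 with a pseudocount of 5 (0 counted) and -0.24 uncentred (2 counted), and 2 were counted with a pseudocount of 0.1. Between the starvations it was 0.093 uncentred (1 counted), and 1 was counted with equal totals, spike-in scaling or a pseudocount of 0.1, in each of these 3 EGR1. In the reported setting EGR1 passed the minimum level only through the amino acid-starved gradient, where it is high, so these counts of EGR1 support nothing.

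The median same-fraction difference without serum was 0.034 with a pseudocount of 0.1 (1 counted), -0.11 uncentred and 0.054 per spike-in signal. Over fractions 8 to 22, 1 was counted, MYC at 0.66. Without amino acids it was -0.019 per spike-in signal (0 counted), and 1 was counted with a pseudocount of 5 or uncentred. Between the starvations it was 0.093 with a pseudocount of 5, 0.26 over fractions 8 to 22 and -0.054 per spike-in signal (1 counted).

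On leaving out each fraction in turn, the serum comparison gave a median shift of -1.50 to -0.85, 3 to 6 counted by shift, and a median level difference of 0.0057 to 0.18. The amino acid comparison gave a median shift of 0.022 to 0.34, a median level difference of 0.21 to 0.39 and 0 to 2 counted by level, EGR1 falling under the minimum level without fraction 15, 16, 17, 19 or 20 (JUND was counted in its place without 17, 19 or 20). Between the starvations the median level difference ran from 0.16 to 0.31 and the count by level from 0 to 1. No paired analysis was possible because each condition had 1 gradient. Unknown depth limits EGR1, FOS, JUNB and PHLDA1 most.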
